A study of Mus musculus with 6 samples.

Results

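Transcripts of 39 genes of the photoreceptor connecting cilium and of intraflagellar transport (IFT) were followed in mouse retina. They were taken by name as known parts of these structures, with earlier results of these data known, and all 39 were among the 49997 genes of the deposited table. The set held 6 subunits of the IFT-A complex and 11 of the IFT-B complex. It further held 7 subunits of the BBSome, 4 genes of the ARL GTPase switch, 8 of the transition zone and 3 other genes of the connecting cilium and axoneme.

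The study asks whether the photoreceptor protein Samd7, which carries a sterile alpha motif, preserves cell identity and limits each photoreceptor to a single light receptor. Polyadenylated RNA was sequenced from 3 retinas labelled Samd7 KO and 3 labelled wild type. The KO label reads Samd7 knockout (-10A) and those retinas were taken at postnatal day 31. The wild-type label reads c57Bl6/j wt and those retinas were taken at postnatal day 36, so that genotype, age and any difference in strain or handling cannot be told apart. All retinas carried a male label. Whether the retinas of a group are from different mice is not stated in the labels, and p-values then cover only the spread between these samples, which may be technical.

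The outer segment of a rod or cone is a modified cilium, joined to the cell body by a thin connecting cilium that corresponds to the transition zone of other cilia. Opsin and membrane made in the cell body pass through it. IFT-B, with kinesin, carries cargo towards the tip, and IFT-A, with dynein, carries it back. The BBSome is an adaptor that rides on these trains and moves membrane proteins out of the cilium, and ARL GTPases load it and release lipid-anchored cargo. Mutations of many of these genes cause inherited blindness in humans.

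Reads recovered from the deposited values came to 44.2 to 62.8 M per library. Samd7 itself stood at 44932 to 57837 normalized reads (reads divided by the authors' size factor of each library) in the libraries labelled Samd7 KO, the KO-labelled libraries below, and at 6349 to 8141 in wild type. The targeted gene was thus higher, not lower, under the KO label, so that every direction below is that of the KO-labelled retinas. Every list of retinal markers had reads in every library. Markers counted as higher or lower are those called by limma-trend at an adjusted p under 0.05. Of all tested genes, 6.79% were called higher and 5.21% lower. Rod markers summed to 2469244 to 2660856 in KO-labelled libraries and to 4158812 to 4529075 in wild type, with 6 of 10 lower. Cone markers summed to 526833 to 545224 in KO-labelled libraries and to 131760 to 135190 in wild type, with 4 of 9 higher and 1 lower. The cone sum was 4.02-fold higher, but the median log2 fold change of the 9 was 0.27, so that the sum does not stand for each marker. The 8 microglia markers were all higher (summed 5130 to 5746 in KO-labelled libraries, 3176 to 3608 in wild type). Pigment epithelium markers were lower in 7 of 9 (summed 1255 to 2435 in KO-labelled libraries, 3869 to 6265 in wild type). Red blood cell markers were higher in 5 of 5 (summed 5661 to 8293 in KO-labelled libraries, 1467 to 2232 in wild type). Of 6 vessel markers 1 was higher (summed 6744 to 7615 in KO-labelled libraries, 4445 to 5155 in wild type). None of these markers was at 0 in all libraries at once. Lens markers summed to 26.0 to 67.7 in KO-labelled libraries and to 39.4 to 5397 in wild type, where 1 library stood apart. The part of these shifts in the results below was not tested. In whole tissue, fewer cells of a type and less RNA per cell cannot be told apart.

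All 39 genes passed the filter on low values, and 10 changed between groups. Arl6, Ift57, Rpgrip1, Wdr19, Ift22, Bbs9 and Ift52 rose in the KO-labelled retinas. Bbs2, Ift43 and Arl3 fell. By direction, 7 of 39 rose against 6.79% of all 20277 genes tested with limma-trend at an adjusted p under 0.05, and 3 of 39 fell against 5.21%. Called either way were 10 of the 39 (25.6%) and 2432 of the 20277. Among the 11096 tested genes with a mean at or above that of the lowest of the 39 (362 normalized reads), 15.2% were called. The same 10 genes were called with edgeR on recovered reads and TMM factors (12.3% of all genes tested), and in the authors' deposited table, where 14.3% of genes with an adjusted p were called. Both rest on the same libraries and are no separate support.

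The changes were small apart from that of Arl6. The absolute log2 fold change was below that of a 1.5-fold change in 37 of 39 genes. The exceptions were Arl6 at 1.08 and Ift57 at 0.61. The median log2 fold change of the 39 was 0.07, against 0.0018 for all tested genes, with 27 values above 0 and 12 below. In 19 of the 39 genes the libraries of the groups did not overlap, 11 higher and 8 lower in those labelled Samd7 KO. Of all tested genes, 31.1% had groups that did not overlap, 15.9% higher and 15.2% lower, and of those at or above the lowest of the 39 in mean, 36.7%. Arl6, Ift57, Rpgrip1 and Ift22 were called under all 18 alternative ways of running the test, and the other 6 calls ended under between 1 and 8 of them. Without Samd7 KO 3, wild type 2 or wild type 3, the count fell to 4 genes higher and 1 lower in each case, with 7.38%, 7.25% and 6.48% of all genes then called. With a replicate block it was also 4 and 1 (4.77% and 3.24% of all genes), and with limma-voom and quality weights 9 and 7 (12.8% and 10.1%).

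**Figure D1:**
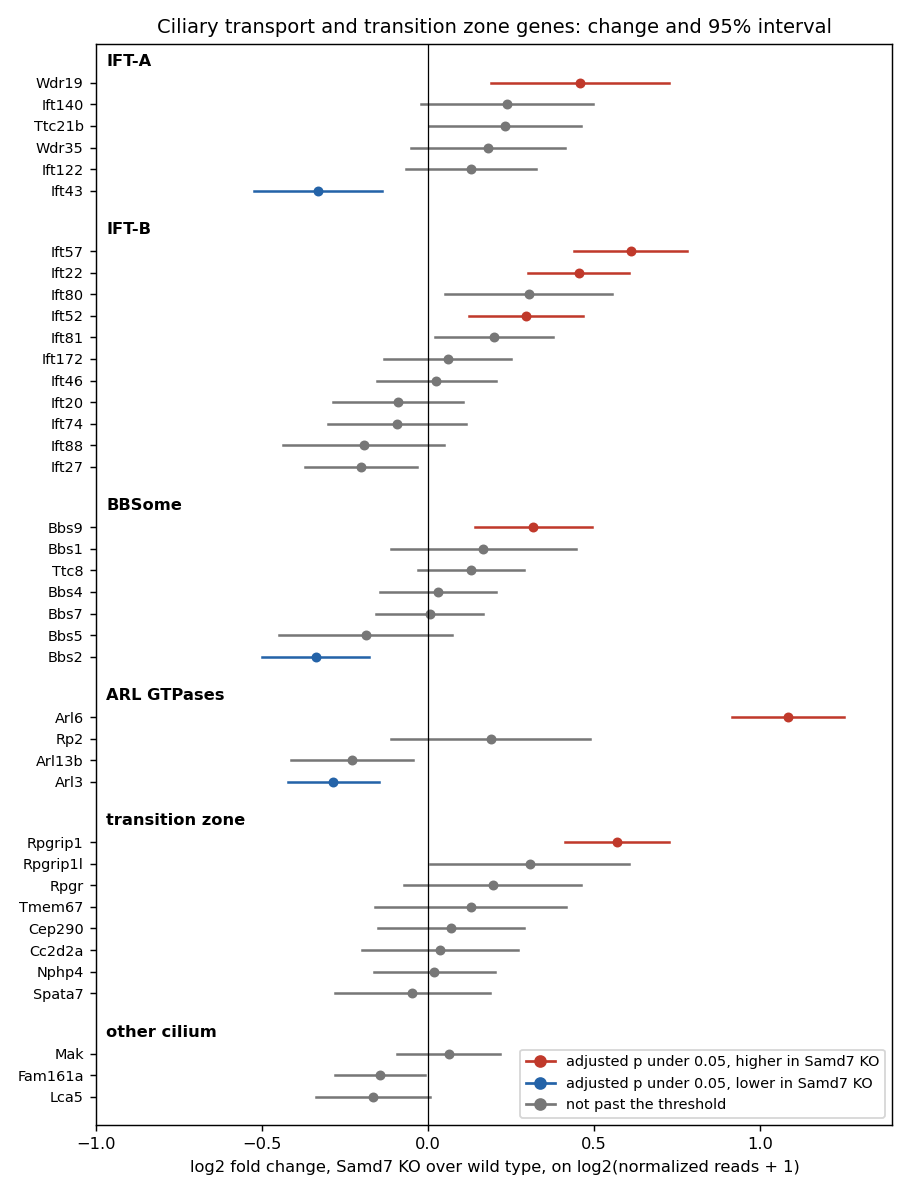
Log2 fold change of each of the 39 genes, KO-labelled retinas over wild type, on log2(normalized reads + 1), with the 95% interval from limma. Genes are grouped by complex; Arl6 stands at 1.08, and the other values lie between -0.34 and 0.61.

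The ARL GTPases held the largest rise and one of the falls. Arl6, also called BBS3, is the GTPase that recruits the BBSome to membranes (chromosome 16, 59612949 to 59639409, GRCm38). It had 14551, 13225 and 13116 normalized reads in KO-labelled libraries, against 5909, 6934 and 6453 in wild type. Every library labelled Samd7 KO lay far above every wild-type library. The means were 13631 ± 799 in KO-labelled libraries and 6432 ± 513 in wild type (n = 3 per group, SD), 2.12-fold higher (log2 fold change 1.08 with SE 0.08, limma adjusted p = 2.05e-06). Of all tested genes, 2.13% rose at least 2-fold on the log2 scale.

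Arl3, the GTPase that releases lipid-anchored cargo inside the cilium (chromosome 19, 46531109 to 46573182), had 11559, 11219 and 11465 normalized reads in KO-labelled libraries, against 13697, 14527 and 13530 in wild type. The groups did not overlap. It was 1.22-fold lower (log2 fold change -0.29 with SE 0.06, limma adjusted p = 0.0110). The call ended without wild type 2 or wild type 3 and with a replicate block (adjusted p up to 0.0680).

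The ratio of Arl6 to Arl3 within a library does not depend on how libraries are scaled. The pair was taken as the largest called rise and the largest called fall of the group. A higher ratio under the KO label thus follows from the choice and is no separate support. The ratio was 1.26, 1.18 and 1.14 in KO-labelled libraries and 0.431, 0.477 and 0.477 in wild type, 2.58 times as high. Arl13b, the exchange factor that activates Arl3, had 2593 ± 182 normalized reads in KO-labelled libraries against 3036 ± 161 in wild type (n = 3 per group, SD) and groups that did not overlap, but did not pass (log2 fold change -0.23 with a 95% interval of -0.41 to -0.04, limma adjusted p = 0.105). Rp2, which makes Arl3 hydrolyse its GTP, had the lowest mean of the 39 genes, with 394, 397 and 363 normalized reads in KO-labelled libraries against 281, 384 and 354 in wild type. Its groups overlapped, and its log2 fold change of 0.19 had a 95% interval of -0.11 to 0.49 (limma adjusted p = 0.418).

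The start-site windows of the 3 genes with the smallest adjusted p are shown because they carry the firmest rises. Each runs from 250 bases before to 50 after an annotated start (RefSeq, GRCm38.p6). That of Rpgrip1 lies inside the span given for the gene below. Capitals mark matches of TAATCC on either strand, letters that photoreceptor homeodomain factors such as CRX bind, or of the X-box, the element bound by RFX factors of ciliated cells. Windows were on record for 35 of the 39 genes.
Arl6 (chr16:59639360-59639659, minus strand): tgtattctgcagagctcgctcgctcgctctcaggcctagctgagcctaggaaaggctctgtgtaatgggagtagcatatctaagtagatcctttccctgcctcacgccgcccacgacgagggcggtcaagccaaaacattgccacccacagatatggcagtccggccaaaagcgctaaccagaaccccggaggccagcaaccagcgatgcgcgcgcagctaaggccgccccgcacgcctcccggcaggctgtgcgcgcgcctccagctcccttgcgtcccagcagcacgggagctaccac
Rpgrip1 (chr14:52110653-52110952, plus strand): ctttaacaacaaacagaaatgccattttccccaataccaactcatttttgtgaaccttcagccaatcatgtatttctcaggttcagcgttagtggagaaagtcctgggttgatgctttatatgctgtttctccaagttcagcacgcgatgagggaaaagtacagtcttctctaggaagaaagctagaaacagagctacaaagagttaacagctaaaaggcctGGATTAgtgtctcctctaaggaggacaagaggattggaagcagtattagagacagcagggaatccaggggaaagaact
Ift57 (chr16:49699044-49699343, plus strand): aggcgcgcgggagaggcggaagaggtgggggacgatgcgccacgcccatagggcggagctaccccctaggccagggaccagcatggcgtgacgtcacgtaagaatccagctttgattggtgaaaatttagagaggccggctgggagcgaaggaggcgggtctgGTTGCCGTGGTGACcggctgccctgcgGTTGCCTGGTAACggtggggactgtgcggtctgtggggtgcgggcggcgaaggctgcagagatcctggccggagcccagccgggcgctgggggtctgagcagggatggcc
The Arl6 window held neither motif, the Rpgrip1 window held GGATTA, the reverse strand of TAATCC, and the Ift57 window held the X-box at 2 places. TAATCC was found in 3 of the 35 genes (Bbs1, Rpgrip1 and Mak), against 8.14% of 27025 genes with a window, and the X-box in 2 (Ift57 and Bbs1), against 1.75%. No match of one motif overlapped a match of the other. The Rpgrip1 window held 3 CpG dinucleotides, while those of Arl6 and Ift57 held 24 and 25. The median was 19.5 over the 42 windows of these genes and 7 over all 32851 windows. A match is a run of letters and no evidence of binding.

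IFT-B had 3 of 11 subunits higher and 0 lower (6.79% and 5.21% of all tested genes). Its median log2 fold change was 0.06, with values from -0.20 to 0.61. Ift57, a peripheral subunit of IFT-B trains (chromosome 16, 49699294 to 49765126), had 3693, 3601 and 3402 normalized reads in KO-labelled libraries, against 2272, 2455 and 2278 in wild type. All KO-labelled libraries lay above all of wild type. It rose 1.53-fold (log2 fold change 0.61 with SE 0.08, limma adjusted p = 2.67e-04).

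Ift22, a small GTPase-like core subunit formerly named Rabl5 (chromosome 5, 136908150 to 136914509), had 4511, 4302 and 4398 normalized reads in KO-labelled libraries. It had 3244, 3219 and 3181 in wild type. Replicates were close together and the groups stood apart. It rose 1.37-fold (log2 fold change 0.45 with SE 0.07, limma adjusted p = 0.00113).

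Ift52, a core scaffold subunit (chromosome 2, 163017117 to 163046155), had 3210, 3168 and 3304 normalized reads in KO-labelled libraries, against 2821, 2593 and 2492 in wild type. The groups did not overlap. It rose 1.22-fold (log2 fold change 0.29 with SE 0.08, limma adjusted p = 0.0310). The call ended with a replicate block and without Samd7 KO 3, wild type 2 or wild type 3 (adjusted p up to 0.179).

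The other 8 IFT-B subunits did not pass. Ift88, whose mutation in mice shortens cilia and outer segments, had 548, 500 and 556 normalized reads in KO-labelled libraries, against 559, 617 and 664 in wild type. The groups lay close but did not overlap (log2 fold change -0.19 with a 95% interval of -0.44 to 0.05, limma adjusted p = 0.292). The small GTPase Ift27, which links IFT-B to BBSome export, also lay lower without overlap at 2201 ± 72.5 in KO-labelled libraries against 2532 ± 89.5 in wild type (n = 3 per group, SD, limma adjusted p = 0.12). Ift81, a tubulin-binding core subunit, lay higher without overlap at 2880 ± 133 in KO-labelled libraries against 2513 ± 149 in wild type (limma adjusted p = 0.146). Ift74, the partner of Ift81, had a log2 fold change of -0.09, and Ift46 had 0.02. Ift20, a peripheral subunit also found at the Golgi and the highest of IFT-B per length, had 5329, 4382 and 4713 normalized reads in KO-labelled libraries against 4810, 5574 and 4961 in wild type (log2 fold change -0.09, limma adjusted p = 0.568). Ift80 had a log2 fold change of 0.30 (limma adjusted p = 0.116), which was 0.40 and passed without Samd7 KO 1 (limma adjusted p = 0.0287), and Ift172 one of 0.06 (limma adjusted p = 0.719). The groups of Ift20, Ift46, Ift74, Ift80 and Ift172 overlapped. Core subunits had a median log2 fold change of 0.02 over 7 genes and peripheral subunits 0.18 over 4.

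IFT-A had 1 of 6 subunits higher and 1 lower (6.79% and 5.21% of all tested genes), with a median log2 fold change of 0.21. Wdr19, also called IFT144 (chromosome 5, 65199696 to 65260415), had 1086, 1551 and 1266 normalized reads in KO-labelled libraries, against 946, 912 and 952 in wild type. The groups did not overlap, but the KO-labelled libraries were spread widely. It rose 1.39-fold (log2 fold change 0.46 with SE 0.12, limma adjusted p = 0.0308). The call ended with a replicate block and without any 1 library other than Samd7 KO 1 (adjusted p up to 0.106).

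Ift43, the smallest IFT-A subunit in transcript length here (chromosome 12, 86082561 to 86162459), had 2141, 1781 and 1978 normalized reads in KO-labelled libraries, against 2535, 2469 and 2409 in wild type. The groups did not overlap. It was 1.26-fold lower (log2 fold change -0.33 with SE 0.09, limma adjusted p = 0.0297). The call ended when libraries were scaled to total reads, with a replicate block, with the transcript-length trend removed and without any 1 library other than Samd7 KO 1 (adjusted p up to 0.0989). The within-library ratio of Wdr19 to Ift43, a pair chosen as Arl6 and Arl3 were, was 0.507, 0.871 and 0.640 in KO-labelled libraries. In wild type it was 0.373, 0.370 and 0.395.

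The remaining IFT-A subunits, Ift122, Ift140, Wdr35 and Ttc21b, had log2 fold changes from 0.13 to 0.24 and did not pass. Ift140, Wdr35 and Ift122 had 0.24, 0.18 and 0.13 (limma adjusted p = 0.225, 0.309 and 0.394). Ttc21b, or IFT139, was the only one of these 4 without overlap, with 750, 924 and 842 normalized reads in KO-labelled libraries against 709, 716 and 709 in wild type. The wild-type libraries lay close together and Samd7 KO 1 lay nearest to them (limma adjusted p = 0.185).

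The BBSome also had 1 subunit higher and 1 lower, of 7 (6.79% and 5.21% of all tested genes), with a median log2 fold change of 0.03. Bbs9, a scaffold subunit (chromosome 9, 22475559 to 22888283), had 5828, 7063 and 6220 normalized reads in KO-labelled libraries, against 5141, 5051 and 5093 in wild type. No library of one group reached the other. It rose 1.25-fold (log2 fold change 0.32 with SE 0.08, limma adjusted p = 0.0242). The call ended with a replicate block and without Samd7 KO 3, wild type 2 or wild type 3 (adjusted p up to 0.103).

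Bbs2, whose protein lies beside Bbs7 and Bbs9 in the complex (chromosome 8, 94067952 to 94099369), had 3362, 3133 and 3227 normalized reads in KO-labelled libraries, against 4257, 4109 and 3932 in wild type. All KO-labelled libraries lay below all of wild type. It was 1.26-fold lower (log2 fold change -0.34 with SE 0.07, limma adjusted p = 0.0110). The call ended without Samd7 KO 3 (adjusted p = 0.0513). The within-library ratio of Bbs9 to Bbs2 was 1.73, 2.25 and 1.93 in KO-labelled libraries and 1.21, 1.23 and 1.30 in wild type. This pair too was chosen as the called rise and the called fall, so that the direction of the ratio follows from the choice.

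The other 5 BBSome subunits lay between log2 fold changes of -0.19 and 0.17. Bbs7, a core subunit, had 7361, 8402 and 7810 normalized reads in KO-labelled libraries against 8237, 7735 and 7498 in wild type. The group means were nearly level (log2 fold change 0.0053 with a 95% interval of -0.16 to 0.17, limma adjusted p = 0.975). Ttc8, or BBS8, had groups that did not overlap, at 6832 ± 498 in KO-labelled libraries against 6235 ± 38.5 in wild type, but did not pass (limma adjusted p = 0.288). Bbs1, which Arl6 binds, had 4256, 6142 and 5613 normalized reads in KO-labelled libraries against 5383, 4396 and 4384 in wild type (limma adjusted p = 0.444). Its groups overlapped, with Samd7 KO 1 lowest of all. Without that library the log2 fold change was 0.32, against 0.17 with it, and passed (limma adjusted p = 0.0467). Bbs4 and Bbs5 had log2 fold changes of 0.03 and -0.19 (limma adjusted p = 0.85 and 0.349). Each of the 7 BBSome subunits had an absolute log2 fold change below that of a 1.5-fold change.

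**Figure D2:**
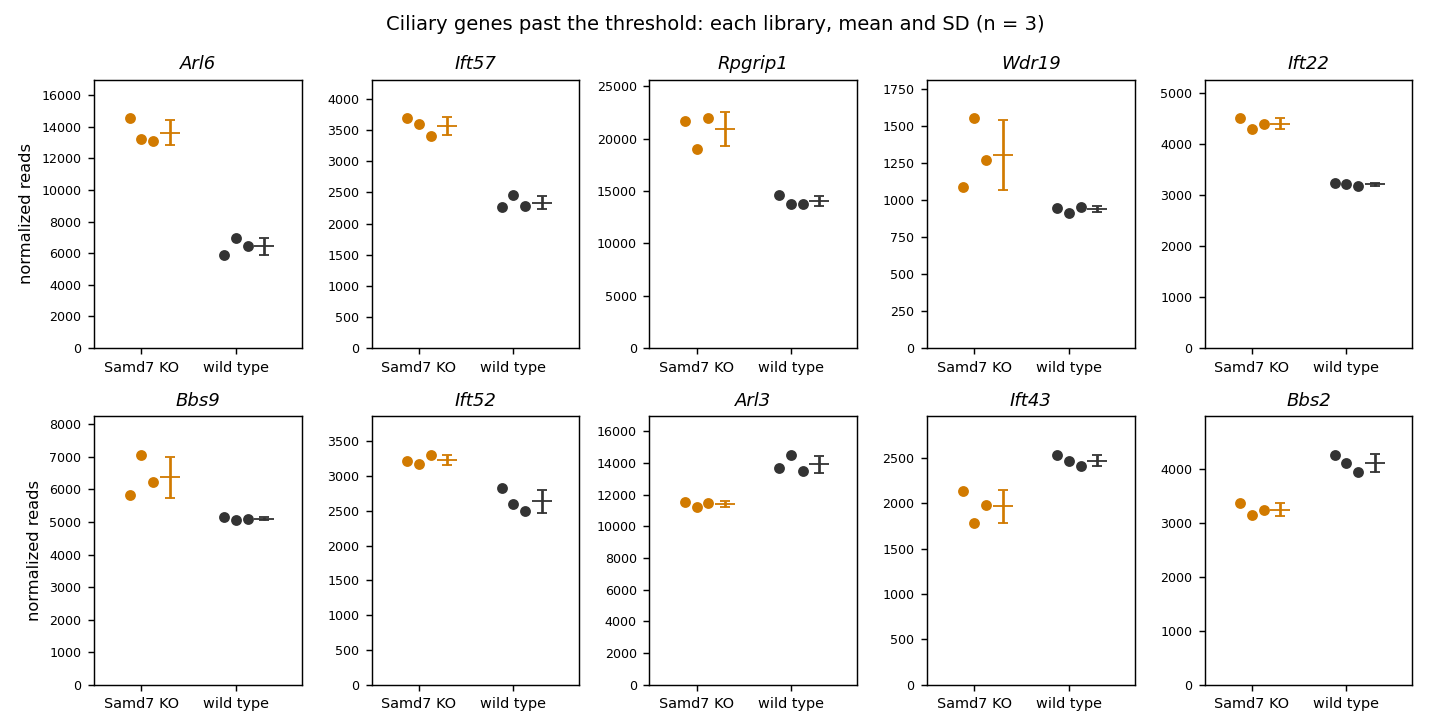
Normalized reads of the 10 genes past the threshold in each library, with the mean and SD to the right of the points (n = 3); every vertical axis starts at 0. In all 10 the KO-labelled libraries and those labelled wild type do not overlap, as in 31.1% of all tested genes. These genes were selected by the test on the same libraries, so that this is no separate support.

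The transition zone had 1 of 8 genes higher and 0 lower (6.79% and 5.21% of all tested genes), with a median log2 fold change of 0.10. Rpgrip1, which anchors the retinitis pigmentosa GTPase regulator Rpgr to the photoreceptor connecting cilium (chromosome 14, 52104241 to 52161339), had the highest mean of the 39 genes. It had 21728, 19004 and 21966 normalized reads in KO-labelled libraries, against 14637, 13727 and 13808 in wild type. All KO-labelled libraries lay above all of wild type. It rose 1.49-fold (log2 fold change 0.57 with SE 0.07, limma adjusted p = 2.43e-04). The predicted gene Gm18976 lies inside Rpgrip1 (52143574 to 52144142) with a mean of 19.6% of its level, and Supt16 overlaps its end. Both were higher too (log2 fold changes 0.44 and 0.36, limma adjusted p = 0.0156 and 0.0210), and no source used here says whether reads were counted by strand.

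Partners of Rpgrip1 did not pass. Rpgr itself had 669, 875 and 668 normalized reads in KO-labelled libraries, against 623, 631 and 664 in wild type. The groups came close without overlapping, and the log2 fold change of 0.19 had a 95% interval of -0.07 to 0.46 (limma adjusted p = 0.343). Spata7, which binds Rpgrip1, had a log2 fold change of -0.05, and its groups overlapped. Rpgrip1l, the broadly expressed paralogue of Rpgrip1, had 355, 454 and 470 normalized reads in KO-labelled libraries against 314, 363 and 352 in wild type (log2 fold change 0.31 with a 95% interval of 0.01 to 0.60, limma adjusted p = 0.179). Without Samd7 KO 1 it was 0.43 and passed (limma adjusted p = 0.0462).

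Cep290, a large protein of the links between axoneme and membrane that is mutated in Leber congenital amaurosis in humans, had 3087, 3298 and 2722 normalized reads in KO-labelled libraries. It had 2613, 3241 and 2842 in wild type. The groups overlapped throughout (log2 fold change 0.07 with a 95% interval of -0.15 to 0.29, limma adjusted p = 0.719). Nphp4, Cc2d2a and Tmem67, of the nephronophthisis and Meckel syndrome modules, had log2 fold changes of 0.02, 0.03 and 0.13, and none passed. Nphp4 is overlapped by Kcnab2, which fell (log2 fold change -0.36, limma adjusted p = 0.00995) and whose mean was 1049% of that of Nphp4. Tmem67 is overlapped by Rbm12b2, with a mean of 58.6% of its level. These percentages compare whole genes, and Kcnab2 and Rbm12b2 each overlap only an end of the listed gene. Overlapping genes also reached 16.3% of the mean of Cep290 (4930430F08Rik), 13.5% of Ift140 (Tmem204) and 11.8% of Ift122 (Mbd4).

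The 3 other genes did not pass either. Fam161a, of the inner wall of the connecting cilium, had 9258, 9359 and 8993 normalized reads in KO-labelled libraries against 10008, 10357 and 10162 in wild type. The groups did not overlap (log2 fold change -0.14 with a 95% interval of -0.28 to -0.01, limma adjusted p = 0.161). Lca5, or lebercilin, an IFT-binding protein of the axoneme, also lay lower without overlap, with 2435, 2704 and 2532 normalized reads in KO-labelled libraries against 2844, 2981 and 2777 in wild type (log2 fold change -0.17, limma adjusted p = 0.206). Mak, the kinase that limits axoneme length, had 9436 ± 680 in KO-labelled libraries against 9024 ± 103 in wild type (log2 fold change 0.06, limma adjusted p = 0.629).

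Levels were compared between genes per kilobase of the longest annotated transcript. Arl3 was the most abundant of the 39 in both groups, at 10339 ± 159 normalized reads per kilobase in KO-labelled libraries and 12607 ± 484 in wild type (n = 3 per group, SD). Arl6 followed in the KO-labelled libraries at 8037 ± 471. In wild type Arl6 stood at 3792 ± 302, below Ift20 at 4383 ± 346 and Fam161a at 3918 ± 67.4, and its gap to Fam161a was smaller than its SD. Rpgrip1l was the least abundant, at 60.8 ± 8.83 in KO-labelled libraries against 48.9 ± 3.64 in wild type.

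Subunits of a complex differed widely in transcript level. In wild type, the highest IFT-B subunit per kilobase, Ift20, stood 30.2 times above the lowest, Ift88, and the highest IFT-A subunit, Ift43, stood 24.1 times above the lowest, Ttc21b. These ratios were 32.6 and 16.2 in the KO-labelled libraries. BBSome subunits lay closer, within 3.16-fold in KO-labelled libraries and within 3.45-fold in wild type, from Bbs1 at 843 to Bbs7 at 2912 in wild type. These orders depend on which isoform is taken. With the longest transcript of the GENCODE basic set, Wdr19 at 149 lay below Ttc21b at 159 in wild type as the lowest IFT-A subunit. Bbs4 at 3600 then stood above Bbs7 at 2912 in wild type, and Fam161a at 5226 above Ift20 at 4483. Rpgrip1 stood at 3885 rather than 2653 in KO-labelled libraries and at 2613 rather than 1784 in wild type.

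**Figure D3:**
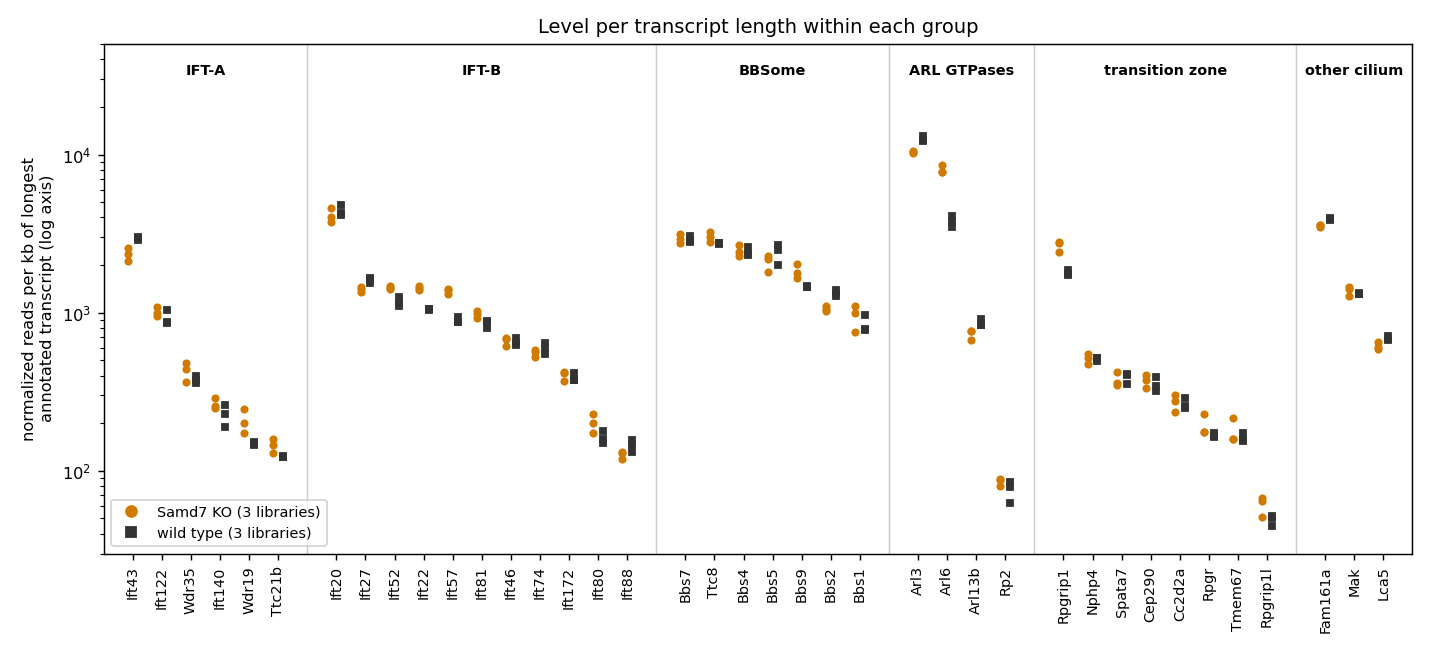
Normalized reads per kilobase of the longest annotated transcript for each of the 39 genes in each library (log axis), KO-labelled libraries left of wild type, ordered by wild-type mean within each group. BBSome subunits lie within 3.45-fold of each other in wild type, IFT-B subunits within 30.2-fold.

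The log2 fold changes varied with transcript length, within the 39 genes and among all genes tested. All 12 of the genes with a transcript over 5000 bases had log2 fold changes above 0 (median 0.20), while those under 3000 bases had 6 above and 8 below 0 (median -0.07). Among all tested genes with a length the medians were 0.11 and -0.06 in these classes. Across the 39 genes, log2 fold change and log2 length had Pearson's r = 0.31 and Spearman's rho = 0.42, against 0.16 and 0.26 across 18216 tested genes. Without Arl6, the other 38 genes had r = 0.52 and rho = 0.50. These values describe genes that share the same 6 libraries, and genes are not replicates.

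Libraries of 1 group differed in the same way. Across the 39 genes, the deviation of a library from its group mean had r = -0.53 with length in Samd7 KO 1 and 0.42 in Samd7 KO 2. It was 0.28 in wild type 1 and -0.33 in wild type 2, and 0.12 and -0.02 in Samd7 KO 3 and wild type 3. All tested genes with a length had r = -0.29 in Samd7 KO 1 and 0.23 in Samd7 KO 2. They had 0.24 in wild type 1, -0.27 in wild type 2, 0.05 in Samd7 KO 3 and 0.04 in wild type 3. With each library's length trend removed, the 39 genes had a median log2 fold change of 0.01, with 20 values above and 19 below 0. By group the median was then 0.11 for IFT-A, -0.0073 for IFT-B, 0.011 for the BBSome and 0.011 for the transition zone. It was -0.05 for the ARL GTPases and -0.13 for the other cilium genes. The same 7 rises were still called (7.42% of all genes with a length were), with Arl6 at 1.150, Ift57 at 0.62, Rpgrip1 at 0.45 and Ift22 at 0.44, and 4 genes were called lower (6.74% of all). Bbs2 and Arl3 were kept, Ift43 was lost (adjusted p = 0.0595), and Arl13b and Lca5 were gained (adjusted p = 0.0486 and 0.0475). The median of the 12 long genes was then 0.10, with 7 above and 5 below 0.

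**Figure D4:**
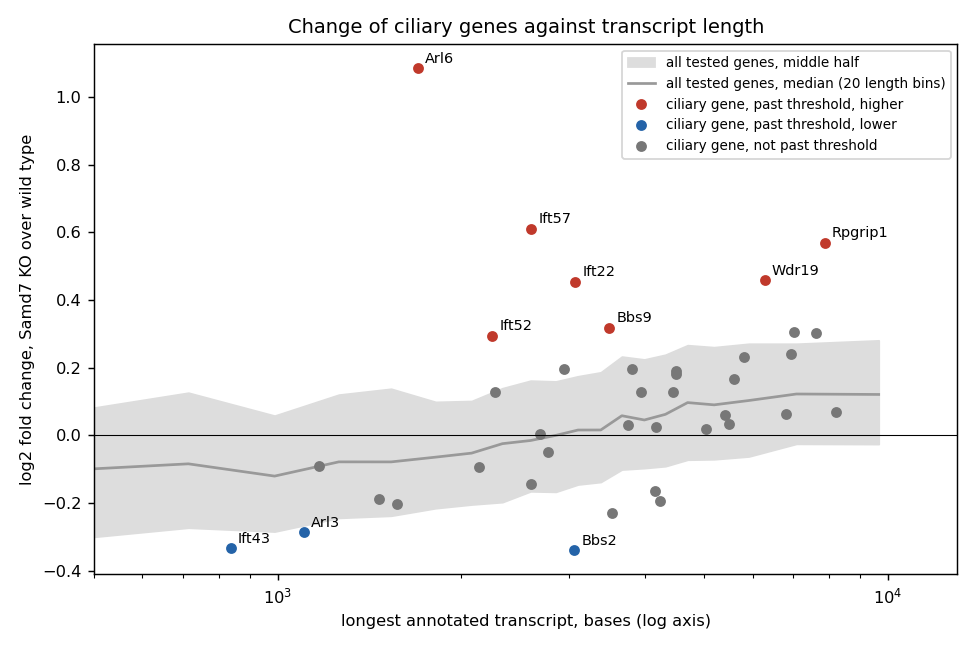
Log2 fold change against the length of the longest annotated transcript (log axis) for the 39 genes, over the median and interquartile band of all tested genes in 20 length bins. Ciliary genes over 5000 bases all lie above 0, and Arl6, at 1.08, lies furthest from the band.

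A wider list of ciliary genes outside the 39 held 83 tested genes, of which 6 rose and 10 fell (19.3% called), with a median log2 fold change of -0.04. Over all tested genes 6.79% rose and 5.21% fell, and among those at or above the lowest of the 39 in mean 15.2% were called either way, so that the share in the wider list lay near this background. The counts by part are a description. By part, 1 of 9 other genes listed with IFT rose (Tulp3), 2 of 14 IFT motor genes fell, and 0 of 8 other genes related to the BBSome changed. Of 22 other genes listed with the transition zone 1 rose and 4 fell, among the falls Cep164 of the distal appendages. Of 7 cargo genes 1 rose and 2 fell. Of 12 centrin and basal body genes 2 rose and 1 fell, and of 11 axoneme genes 1 rose and 1 fell.

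Of the wider list, 84 of 97 symbols were in the table. The lipid-binding carriers Unc119b and Unc119, whose cargo Arl3 releases, moved in opposite directions. Unc119b, a carrier of myristoylated ciliary proteins, had 6551, 7253 and 6691 normalized reads in KO-labelled libraries, against 4036, 4178 and 4876 in wild type. It rose 1.57-fold (limma adjusted p = 3.49e-04). Its paralogue Unc119, which carries rod transducin, had 180438 ± 6030 in KO-labelled libraries against 232642 ± 4015 in wild type (n = 3 per group, SD) and was 1.29-fold lower (limma adjusted p = 5.85e-04). Tulp1, the photoreceptor Tubby-like protein, was 1.21-fold lower. Tulp3, which brings receptors to IFT-A, rose 1.64-fold (609 ± 69.7 in KO-labelled libraries against 370 ± 23.8 in wild type, limma adjusted p = 0.00222). Pcare, an actin regulator of disc formation, rose 1.27-fold, and the basal body genes Sdccag8 and Cep78 rose 1.41- and 1.36-fold. Cep164, of the distal appendages, was 1.28-fold lower.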

How the data were processed

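Per the labels' protocols, a low-input SMARTer kit turned the RNA of 1 retina per library into cDNA, which was sheared and put through 15 cycles of amplification. Molecular identifiers are not mentioned, so that counting error understates the true error. Per the submitters' processing notes, the builds were GRCm38 and mm10, and the tools included HTSeq 0.12.4, STAR 2.7.3a and cutadapt 3.0. Which tool did what, and the strand setting, no source used here states.

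The deposited signal is a gene's read count after division by a size factor, 1 for each library, as the values and headers of the authors' table show. All 166478 values above 0 were whole reads within 0.01 reads (100%) once divided by the worth of 1 read, and these sum to 44.2 to 62.8 M per library. The authors also deposited log2 fold changes with standard errors, Wald scores, and p-values with adjusted p-values, per the file headers; the submitters' processing notes name DESeq2.

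Because the values were normalized, limma-trend on log2(value + 1), without a block, was the main test. It covered the 20277 genes that reached 10 in 3 or more libraries. Genes were called at a two-sided p under 0.05 after Benjamini-Hochberg adjustment over all genes tested. Log2 fold changes, standard errors and 95% intervals come from this fit. A fold divides one group mean of normalized reads by the other. The alternatives were edgeR, DESeq2 and limma-voom on recovered reads, other scalings, pseudocounts and filters, a replicate block, a correction for transcript length within each library, and leaving out each library. Software was limma 3.58.1, edgeR 4.0.16 and DESeq2 1.42.0 under R 4.3.3, checked on simulated data.

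Positions and promoters come from RefSeq (GRCm38.p6). Transcript length is the longest GENCODE M21 transcript of a symbol, known for all 39 genes and for 18216 tested genes.

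The 39 genes, the marker lists and the wider ciliary list were chosen with earlier results of these data known. The rule for named genes took every called gene, and in each group the highest and lowest gene per length and the largest absolute change. It further took Cep290, Rpgr, Rp2, Ift88 and Arl3, and the 8 called genes of the wider list with the smallest adjusted p. Other genes named were chosen after their values were seen.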

Additional observations from a re-analysis of the deposited data

How the results depend on the processing

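The 2432 genes called in the whole table became 4650 under limma-voom with quality weights and 1313 to 3247 when single libraries were left out. The 7 ciliary genes called higher became 4 with a replicate block and 4 to 10 without single libraries. The 3 called lower became 1 with the block, 7 with limma-voom and 1 to 3 without single libraries. The cause was not tested. The replicate numbers did not pair the libraries: deviations of same-numbered libraries had r = -0.182, -0.133 and -0.0141, and the block took the count over all genes to 1624. It kept Ift22, Ift57, Arl6, Rpgrip1 and Bbs2. Scaling to total reads gave 71.2% of all calls higher and upper-quartile factors 48.9%, against 56.6%, and moved the median of all genes by less than 0.1 on the log2 scale. No called ciliary gene changed direction under any of the 18 alternatives. The near-level Bbs7 turned to a log2 fold change of -0.029 with upper-quartile factors and lay between -0.044 and 0.051 without single libraries. Cep290 turned to -0.0097 with limma-voom and to -0.049 with the length trend removed, and lay between -0.0042 and 0.15 without single libraries. Limma-voom further called Ift80 and Ift122 higher and Arl13b, Bbs5, Fam161a and Ift27 lower, and leaving out Samd7 KO 1 called Bbs1, Ift80 and Rpgrip1l higher. Rp2, the lowest of the 39 in mean, had 281 to 397 normalized reads per library.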

Other observations

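Markers of motile cilia, the beating cilia of other tissues, did not move as one in these retinas. The test called 2 of 12 higher and 0 lower, against 6.79% and 5.21% of all tested genes. The whole list of 15 genes summed to 4443 to 4686 normalized reads in KO-labelled libraries and to 1520 to 1716 in wild type. Without the called Dnaic1 and Tekt4, the other 13 genes summed to 1182 to 1210 in KO-labelled libraries and to 1293 to 1478 in wild type. That none of these 13 was called follows from leaving out the called genes, and Dnah5, Rsph1 and Rsph4a were not tested. The 12 tested genes of the list had a median log2 fold change of 0.0090. Dnaic1, an outer dynein arm intermediate chain, had 2379 ± 148 normalized reads in KO-labelled libraries and 218 ± 37.1 in wild type (n = 3 per group, SD, 10.9-fold, limma adjusted p = 5.31e-09). Tekt4, a microtubule inner protein of motile axonemes, had 973 ± 46.6 in KO-labelled libraries and 33.1 ± 6.05 in wild type (limma adjusted p = 2.25e-09). Foxj1, the master factor of motile ciliated cells, had 183, 115 and 170 normalized reads in KO-labelled libraries, against 271, 182 and 162 in wild type, and did not pass (limma adjusted p = 0.306). Dnaic1 and Tekt4 were chosen after their values were seen.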
